A study of Danio rerio with 8 samples.

Results

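The proteasome is the protease of the cytosol and nucleus that breaks down proteins tagged with ubiquitin, and this account follows the transcripts of its genes through the trunk of the zebrafish embryo. The genes were taken by name: every row of the deposited table whose gene symbol is psma, psmb, psmc, psmd, psme or psmg followed by a digit, with 1 row kept for each symbol, the row with the highest mean. This gave 49 genes out of 13765 symbols, from 51 rows, because psmd2 had 3 rows. A row of the name psmd7 was only a filler without comparison values, so psmd7 was not analysed here. Of the 49, 43 reached a mean of 1 RPKM (reads per kilobase of transcript, scaled to the mapped reads of the library) over the libraries and entered the tests, and 6 did not.

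The embryos were 38 to 40 hours old and differed in their alleles of the forkhead gene foxc1a. MUT groups were p162 homozygotes, and SIB groups were their siblings, which the sample characteristics give as p162 heterozygotes and the design text as wild type. AS libraries held the anterior somitic segments 1 to 6, which the fin nerves cross, and PS libraries the posterior segments 7 to about 12, which they do not enter, both cut without head and yolk. Each of the 4 groups, SIB_AS, MUT_AS, SIB_PS and MUT_PS, had 2 libraries, here replicates 1 and 3 after their titles, and the labels say neither how many embryos went into a library nor whether AS and PS pieces came from the same embryos. The p-values therefore measure only the spread between these libraries.

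The core of the proteasome, the 20S particle, is a barrel of stacked rings. Its outer rings are built of alpha subunits, which gate the entrance, and its inner rings of beta subunits, some of which carry the proteolytic sites. The 19S particle caps the barrel: its ATPases, encoded by psmc genes, unfold the substrate and push it inward, and its other subunits, encoded by psmd genes, bind ubiquitin chains, cut them off and hold the particle together. Alternative caps come from psme genes, and psmg genes and a few psmd genes encode chaperones that assemble the particles and are absent from the finished enzyme. Skeletal muscle relies on the proteasome to renew and to remove contractile proteins. The roles given here are those described for the mammalian and yeast proteins.

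The libraries differed in ways that touch every value below. The table holds no counts. Gaps between low values put MUT_AS replicate 3 at 46.7 or 93.3 times fewer reads than SIB_PS replicate 3, and 17.5% of its transcripts were listed at 0, where other libraries had 4.59% to 8.01%. The median transcript stood at 8.74 to 9.47 RPKM in the AS libraries and at 6.06 to 6.76 RPKM in the PS libraries, so each comparison is given as deposited and after every library was scaled to the same median. The 100 most abundant transcripts took 37.9% to 41.0% of all RPKM in AS and 46.4% to 50.4% in PS. Of the 18 fast muscle markers listed, 17 were in the table, none of them at 0 in any library, and together they took 5.97% and 7.82% of all RPKM in SIB_AS, 3.62% and 4.71% in MUT_AS, 13.7% and 16.5% in SIB_PS and 12.3% and 13.0% in MUT_PS. The tissue label of somitic segments thus matched its markers, with less muscle RNA in AS than in PS, and fewer muscle cells cannot be told apart from less muscle RNA in each cell. foxc1a itself stood at 18.0 and 16.3 RPKM in SIB_AS, 19.3 and 16.3 in MUT_AS, 7.75 and 7.32 in SIB_PS and 9.03 and 7.74 in MUT_PS, so its level does not check the genotype labels.

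Proteasome genes were strongly expressed and made up a larger share of the RNA in the anterior segments. The 49 genes together took 0.831% and 0.800% of all RPKM in SIB_AS, 0.882% and 0.759% in MUT_AS, 0.504% and 0.465% in SIB_PS and 0.446% and 0.420% in MUT_PS. Every AS library was above every PS library. The total was also taken without the fast muscle and erythroid markers and without all transcripts averaging under 1 RPKM. The mean shares were then 0.880% in SIB_AS, 0.863% in MUT_AS, 0.573% in SIB_PS and 0.502% in MUT_PS, higher in AS in both genotypes. Slow muscle markers and unlisted muscle transcripts stayed in that total, so the part of muscle RNA was not tested.

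**Figure D1:**
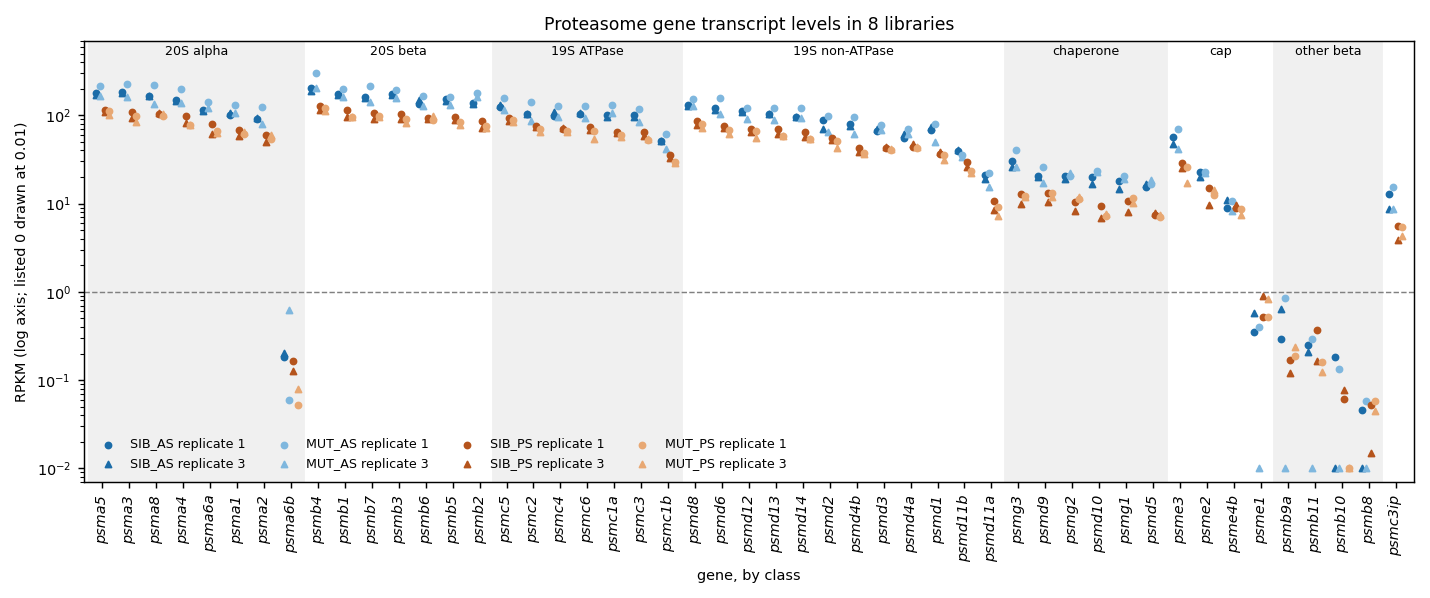
RPKM on a log axis of the 49 genes in the 8 libraries, ordered by class; circles are replicate 1, triangles replicate 3, blue tones AS and orange tones PS, and the dashed line marks 1 RPKM. The alpha, constitutive beta and ATPase genes lie in the upper part of the plot, the non-ATPase genes spread from there down to psmd11a at the level of the chaperones, and the 4 beta genes at the right end, psma6b and psme1 stay under 1 RPKM.

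The 7 alpha subunit genes that passed the filter had medians of 149.8 and 144 RPKM in SIB_AS and 98.2 and 82.1 RPKM in SIB_PS. psma5 was the highest of them by mean, at 179.7 and 170.4 RPKM in SIB_AS, 214 and 166 in MUT_AS, 116 and 108 in SIB_PS and 112 and 100 in MUT_PS. psma3 stood at 183 and 180 RPKM in SIB_AS, 226 and 163 in MUT_AS, 108 and 93.3 in SIB_PS and 97.2 and 84.9 in MUT_PS. psma8 stood at 164 and 164 RPKM in SIB_AS, 219.6 and 135 in MUT_AS, 104 and 105 in SIB_PS and 99.1 and 105 in MUT_PS. In mammals PSMA8 is a testis form that replaces another alpha subunit. Here psma8 was among the leading alpha genes of the zebrafish trunk, and no gene named psma7 was among the 49. psma4, which in yeast encodes the subunit whose tail closes the gate of the ring, stood at 149.8 and 144 RPKM in SIB_AS, 199 and 137 in MUT_AS, 98.2 and 82.1 in SIB_PS and 77.2 and 77.0 in MUT_PS. psma6a stood at 114 and 111 RPKM in SIB_AS, 140.3 and 121 in MUT_AS, 79.7 and 62.2 in SIB_PS and 66.0 and 63.0 in MUT_PS, and psma1 at 100.4 and 106 RPKM in SIB_AS, 131 and 106 in MUT_AS, 67.3 and 58.4 in SIB_PS and 60.8 and 64.0 in MUT_PS. In each of these genes all 4 AS libraries were above all 4 PS libraries as deposited, as in 48.5% of all transcripts tested. After scaling, psma8 overlapped and the others stayed apart with AS higher, as did 26.5% of all transcripts. psma2 also overlapped after scaling. psma2, the lowest alpha gene past the filter, stood at 89.7 and 92.2 RPKM in SIB_AS, 124 and 80.6 in MUT_AS, 59.5 and 49.4 in SIB_PS and 53.5 and 59.2 in MUT_PS. psma6b stayed under 1 RPKM, at 0.183 and 0.201 RPKM in SIB_AS, 0.0603 and 0.624 in MUT_AS, 0.166 and 0.127 in SIB_PS and 0.0524 and 0.0794 in MUT_PS. The AS and PS libraries overlapped in mutants, while both SIB_PS libraries lay below SIB_AS and above MUT_PS, all at levels too low to be tested. RefSeq now names that accession psma6l.

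The 7 constitutive beta genes were the most abundant class. psmb4, a structural subunit that helps the rings of the barrel to dock, was the highest gene of all 49, at 206 and 189.7 RPKM in SIB_AS, 299 and 202 in MUT_AS, 127 and 116 in SIB_PS and 121 and 112 in MUT_PS. psmb1 stood at 174 and 171 RPKM in SIB_AS, 199 and 162 in MUT_AS, 115 and 96.1 in SIB_PS and 97.0 and 95.8 in MUT_PS, and psmb3 at 174 and 169.7 RPKM in SIB_AS, 192 and 159 in MUT_AS, 103 and 91.0 in SIB_PS and 90.7 and 81.0 in MUT_PS. The proteolytic sites are carried by psmb5, psmb6 and psmb7. psmb5, the chymotrypsin-like subunit, stood at 154 and 144 RPKM in SIB_AS, 163 and 131 in MUT_AS, 95.6 and 89.0 in SIB_PS and 85.1 and 78.7 in MUT_PS. psmb6, the caspase-like subunit, stood at 134 and 148 RPKM in SIB_AS, 164 and 129 in MUT_AS, 94.5 and 90.9 in SIB_PS and 89.1 and 99.4 in MUT_PS. psmb7, the trypsin-like subunit, stood at 159 and 158 RPKM in SIB_AS, 215 and 142 in MUT_AS, 108 and 91.1 in SIB_PS and 98.0 and 96.5 in MUT_PS. These catalytic genes were thus expressed at like levels. As deposited, each was higher in every AS library than in every PS library, as were 48.5% of all transcripts tested. After scaling, the AS and PS libraries of each overlapped, while 26.5% of all transcripts had every AS library higher. psmb2, the lowest of the class by mean, stood at 139 and 136 RPKM in SIB_AS, 180 and 160.3 in MUT_AS, 87.0 and 71.2 in SIB_PS and 76.0 and 71.1 in MUT_PS, with both MUT_AS libraries above both SIB_AS libraries.

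The other 4 beta genes, as named in the deposited rows, were close to silent. In mammals PSMB8, PSMB9 and PSMB10 replace the catalytic subunits when interferon acts, forming the immunoproteasome, and PSMB11 does so in the thymus. psmb9a stood at 0.294 and 0.643 RPKM in SIB_AS, 0.843 and 0 in MUT_AS, 0.171 and 0.120 in SIB_PS and 0.189 and 0.238 in MUT_PS. psmb11 stood at 0.252 and 0.207 RPKM in SIB_AS, 0.292 and 0 in MUT_AS, 0.367 and 0.166 in SIB_PS and 0.162 and 0.123 in MUT_PS, and psmb10 at 0.182 and 0 RPKM in SIB_AS, 0.135 and 0 in MUT_AS, 0.0605 and 0.0768 in SIB_PS and 0 and 0 in MUT_PS. psmb8 stood at 0.0454 and 0 RPKM in SIB_AS, 0.0588 and 0 in MUT_AS, 0.0528 and 0.0149 in SIB_PS and 0.0585 and 0.0442 in MUT_PS. None of them reached 1 RPKM in any library, all 4 were listed at 0 in the shallowest library, MUT_AS replicate 3, and no ordering of the groups can be read at this depth. RefSeq names these accessions psmb13a (psmb10), psmb12 (psmb11) and psmb8a (psmb8), and in its gene order (another assembly than that of the files) they lie next to each other as psmb10, psmb8, psmb11 and psmb9a with 0 protein-coding genes between neighbours. The transcript that RefSeq does name psmb10, zgc:92791, was higher, with group means from 4.32 to 7.63 RPKM, and is described under the other observations. In the same tissue the constitutive psmb5, psmb6 and psmb7 were above 78 RPKM in every library. Of 12 genes of antigen processing in the table, 7 passed the filter and 0 were called in either region comparison in limma, with 0 and 2 at an unadjusted p under 0.05 in siblings and mutants. Of all transcripts 41.6% rose and 9.62% fell in siblings by that test, and 44% and 10.9% in mutants. After scaling 1 of the 7, the class I gene mhc1zba, fell in AS in both (-0.76 and -0.88). Of all transcripts 21.1% and 22.6% then fell.

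The 7 ATPase genes of the 19S base had medians of 104 RPKM in SIB_AS and 70.3 RPKM in SIB_PS over the group means. psmc5 was the highest, at 125 and 130.4 RPKM in SIB_AS, 159 and 114 in MUT_AS, 94.5 and 86.2 in SIB_PS and 88.3 and 83.8 in MUT_PS. psmc2 stood at 104 and 104 RPKM in SIB_AS, 142 and 87.1 in MUT_AS, 74.8 and 72.9 in SIB_PS and 69.9 and 64.3 in MUT_PS, and psmc6 at 103 and 108 RPKM in SIB_AS, 126 and 93.7 in MUT_AS, 73.2 and 68.4 in SIB_PS and 66.7 and 53.9 in MUT_PS. psmc4 stood at 98.0 and 109.7 RPKM in SIB_AS, 129 and 94.9 in MUT_AS, 69.6 and 71.1 in SIB_PS and 65.8 and 63.9 in MUT_PS. As deposited, all 4 AS libraries were above all 4 PS libraries in each of them, as in 48.5% of all transcripts tested. After scaling, the AS and PS libraries overlapped in each of them, while 26.5% of all transcripts had every AS library higher. psmc3 stood at 102 and 95.5 RPKM in SIB_AS, 118 and 84.5 in MUT_AS, 64.3 and 58.6 in SIB_PS and 52.8 and 53.7 in MUT_PS. psmc1a stood at 101 and 96.7 RPKM in SIB_AS, 131 and 107 in MUT_AS, 64.3 and 62.5 in SIB_PS and 59.4 and 57.2 in MUT_PS, and its paralog psmc1b, the lowest ATPase gene, at 51.4 and 51.5 RPKM in SIB_AS, 61.2 and 41.5 in MUT_AS, 35.3 and 32.7 in SIB_PS and 29.9 and 29.1 in MUT_PS.

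The 12 non-ATPase genes of the 19S particle spread more widely, from 20 to 129 RPKM in their SIB_AS means. psmd8 was the highest, at 131 and 127 RPKM in SIB_AS, 155 and 127 in MUT_AS, 85.2 and 78.0 in SIB_PS and 78.8 and 72.5 in MUT_PS. psmd6 stood at 123 and 114 RPKM in SIB_AS, 159 and 103 in MUT_AS, 76.1 and 72.0 in SIB_PS and 69.0 and 61.5 in MUT_PS, and psmd12 at 111 and 110.4 RPKM in SIB_AS, 122 and 89.8 in MUT_AS, 70.8 and 65.3 in SIB_PS and 66.1 and 55.2 in MUT_PS. These are lid subunits. psmd13, also of the lid, stood at 104 and 103 RPKM in SIB_AS, 120.2 and 89.6 in MUT_AS, 70.1 and 60.7 in SIB_PS and 58.6 and 58.4 in MUT_PS. psmd14, the deubiquitinase that removes ubiquitin chains as the substrate enters, stood at 94.5 and 95.0 RPKM in SIB_AS, 121 and 92.1 in MUT_AS, 64.3 and 56.8 in SIB_PS and 53.5 and 53.4 in MUT_PS. psmd3 stood at 66.1 and 70.3 RPKM in SIB_AS, 78.2 and 68.4 in MUT_AS, 43.1 and 44.3 in SIB_PS and 40.4 and 41.0 in MUT_PS. In all of them the AS libraries were above the PS libraries as deposited, as in 48.5% of all transcripts tested. After scaling, psmd6, psmd12 and psmd13 overlapped, and psmd3, psmd8 and psmd14 stayed apart, as did 26.5% of all transcripts with AS higher. The scaffold gene psmd2 stood at 88.6 and 70.6 RPKM in SIB_AS, 98.3 and 65.2 in MUT_AS, 55.0 and 52.6 in SIB_PS and 51.2 and 42.2 in MUT_PS, and the other large scaffold gene, psmd1, at 67.4 and 74.5 RPKM in SIB_AS, 80.2 and 49.7 in MUT_AS, 36.9 and 38.6 in SIB_PS and 36.0 and 30.9 in MUT_PS. psmd4a and psmd4b encode a receptor for ubiquitin chains. psmd4b stood at 79.2 and 76.3 RPKM in SIB_AS, 96.7 and 61.4 in MUT_AS, 43.1 and 38.2 in SIB_PS and 37.2 and 36.2 in MUT_PS, and psmd4a at 56.0 and 61.5 RPKM in SIB_AS, 70.8 and 62.1 in MUT_AS, 43.9 and 47.2 in SIB_PS and 42.2 and 44.2 in MUT_PS. psmd11a and psmd11b encode the lid subunit that contacts the 20S ring. psmd11b stood at 39.1 and 40.3 RPKM in SIB_AS, 35.5 and 34.1 in MUT_AS, 29.3 and 25.9 in SIB_PS and 23.4 and 22.1 in MUT_PS, and psmd11a, the lowest of the class, at 21.0 and 18.9 RPKM in SIB_AS, 22.2 and 15.6 in MUT_AS, 10.7 and 8.43 in SIB_PS and 9.10 and 7.24 in MUT_PS. MUT_AS replicate 3 was the lowest AS library for psmd1, psmd2, psmd4b and psmd11a.

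The 6 chaperone genes lay below most of the subunits they assemble, with SIB_AS means from 16.1 to 28.0 RPKM. psmg1 and psmg2 encode the chaperone that gathers the alpha ring. psmg1 stood at 18.1 and 14.6 RPKM in SIB_AS, 20.4 and 18.8 in MUT_AS, 10.6 and 8.08 in SIB_PS and 11.7 and 10.1 in MUT_PS, and psmg2 at 20.4 and 18.9 RPKM in SIB_AS, 20.5 and 22.3 in MUT_AS, 10.3 and 8.19 in SIB_PS and 11.2 and 12.0 in MUT_PS. psmg3, part of another chaperone of that ring and the highest of the class, stood at 30.3 and 25.7 RPKM in SIB_AS, 40.3 and 26.1 in MUT_AS, 12.7 and 9.91 in SIB_PS and 12.3 and 11.8 in MUT_PS. In each of the psmg genes every AS library was above every PS library as deposited, as in 48.5% of all transcripts tested. After scaling, psmg1 overlapped, and psmg2 and psmg3 stayed apart, as did 26.5% of all transcripts with AS higher. psmd5, psmd9 and psmd10 encode chaperones of the ATPase ring. psmd10, known as gankyrin, stood at 20.1 and 16.5 RPKM in SIB_AS, 23.2 and 22.7 in MUT_AS, 9.33 and 6.92 in SIB_PS and 7.30 and 7.63 in MUT_PS, and psmd9 at 20.6 and 19.8 RPKM in SIB_AS, 25.7 and 17.3 in MUT_AS, 13.2 and 10.4 in SIB_PS and 13.1 and 11.8 in MUT_PS. psmd5, the lowest of the class, stood at 15.4 and 16.8 RPKM in SIB_AS, 16.6 and 18.6 in MUT_AS, 7.52 and 7.76 in SIB_PS and 6.98 and 7.35 in MUT_PS.

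Among the caps, psme3, which encodes a nuclear cap subunit that admits substrates without ubiquitin, was the highest, at 56.9 and 47.0 RPKM in SIB_AS, 70.4 and 41.5 in MUT_AS, 28.7 and 25.2 in SIB_PS and 25.7 and 17.2 in MUT_PS. psme2, a subunit of the interferon-responsive cap, stood at 22.8 and 20 RPKM in SIB_AS, 23.0 and 22.1 in MUT_AS, 15.1 and 9.55 in SIB_PS and 12.7 and 14.1 in MUT_PS. Its partner psme1, the lowest, stayed under 1 RPKM, at 0.350 and 0.576 RPKM in SIB_AS, 0.399 and 0 in MUT_AS, 0.524 and 0.896 in SIB_PS and 0.516 and 0.830 in MUT_PS. The levels of the partners thus differed widely, although in mammals PSME1 and PSME2 form a ring together. psme4b, which encodes a large single-chain cap, stood at 8.83 and 11.1 RPKM in SIB_AS, 10.6 and 8.27 in MUT_AS, 8.88 and 9.60 in SIB_PS and 8.71 and 7.34 in MUT_PS, and it was the only gene of the 43 tested whose AS and PS libraries overlapped in both genotypes. The name rule also takes in psmc3ip, which encodes a recombination factor that binds the PSMC3 protein and is not a subunit. It stood at 13.0 and 8.77 RPKM in SIB_AS, 15.3 and 8.79 in MUT_AS, 5.58 and 3.89 in SIB_PS and 5.40 and 4.31 in MUT_PS.

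The comparison of anterior with posterior segments in siblings asked how the territory of the fin nerves differs from the segments behind it. Proteasome genes were higher in AS as a body. In SIB_AS 39 of the 43 tested genes rose over SIB_PS and 0 fell (limma on log2(RPKM + 1), Benjamini-Hochberg adjusted p under 0.05 over 10889 transcripts). Of all transcripts tested 41.6% rose and 9.62% fell by the same rule. The median log2 difference of the 43 was 0.68, a fold of 1.60 on that scale, against 0.40 for all transcripts. The interquartile range of the 43 was 0.18, against 0.87 for all transcripts, so these values lay close together. 41 of the 43 lay above the median of all transcripts.

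The classes stood in the same range, with the chaperones ahead. The median log2 difference in siblings was 0.70 for the alpha genes, 0.70 for the constitutive beta genes, 0.57 for the ATPase genes, 0.66 for the non-ATPase genes and 1.0 for the chaperone genes. psmg3 rose by 1.24 on the log2 scale (SE 0.22, limma adjusted p = 0.0014), psmd10 by 1.09 (SE 0.18, adjusted p = 0.00104) and psmg2 by 1.02 (SE 0.16, adjusted p = 0.00096). psmc3ip, which is no subunit, rose by 1.04 (SE 0.27, adjusted p = 0.0103). Next came psmd11a with 1.0, psmd5 with 0.98, psmd4b with 0.92 and psme3 with 0.92, all of which passed the test. Of the genes that carry the proteolytic sites, psmb5 rose by 0.68, psmb6 by 0.60 and psmb7 by 0.68. The 4 genes that did not pass were psme4b at 0.09 (SE 0.18, limma adjusted p = 0.694), psmd4a at 0.36 (adjusted p = 0.0703), psmc2 at 0.49 (adjusted p = 0.0732) and psmd2 at 0.55 (adjusted p = 0.0538). The other rows of psmd2 had log2 differences of 1.03 and 0.77.

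In mutants 42 of the 43 genes rose in AS over PS and 0 fell, against 44% of all transcripts that rose and 10.9% that fell. The median log2 difference was 0.85, a fold of 1.80, against 0.41 for all transcripts, and the interquartile range was 0.27, against 0.93. psmd10 rose by 1.5 (SE 0.18, limma adjusted p = 0.000193), psmg3 by 1.36 (SE 0.22, adjusted p = 0.000685) and psme3 by 1.32 (SE 0.26, adjusted p = 0.00216). psmb2 followed with 1.2 (adjusted p = 0.000305) and psmd5 with 1.19 (adjusted p = 0.000243). The smallest rises were those of psmd11b with 0.59 and psmd4a with 0.61. psme4b again did not pass, at 0.20 (SE 0.18, adjusted p = 0.361). The class medians were 0.90 for alpha, 0.89 for beta, 0.76 for ATPase, 0.86 for non-ATPase and 1.01 for chaperone genes. Over both genotypes, all 4 AS libraries were above all 4 PS libraries in 42 of the 43 genes, psme4b being the exception, and in 48.5% of all transcripts tested.

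**Figure D2:**
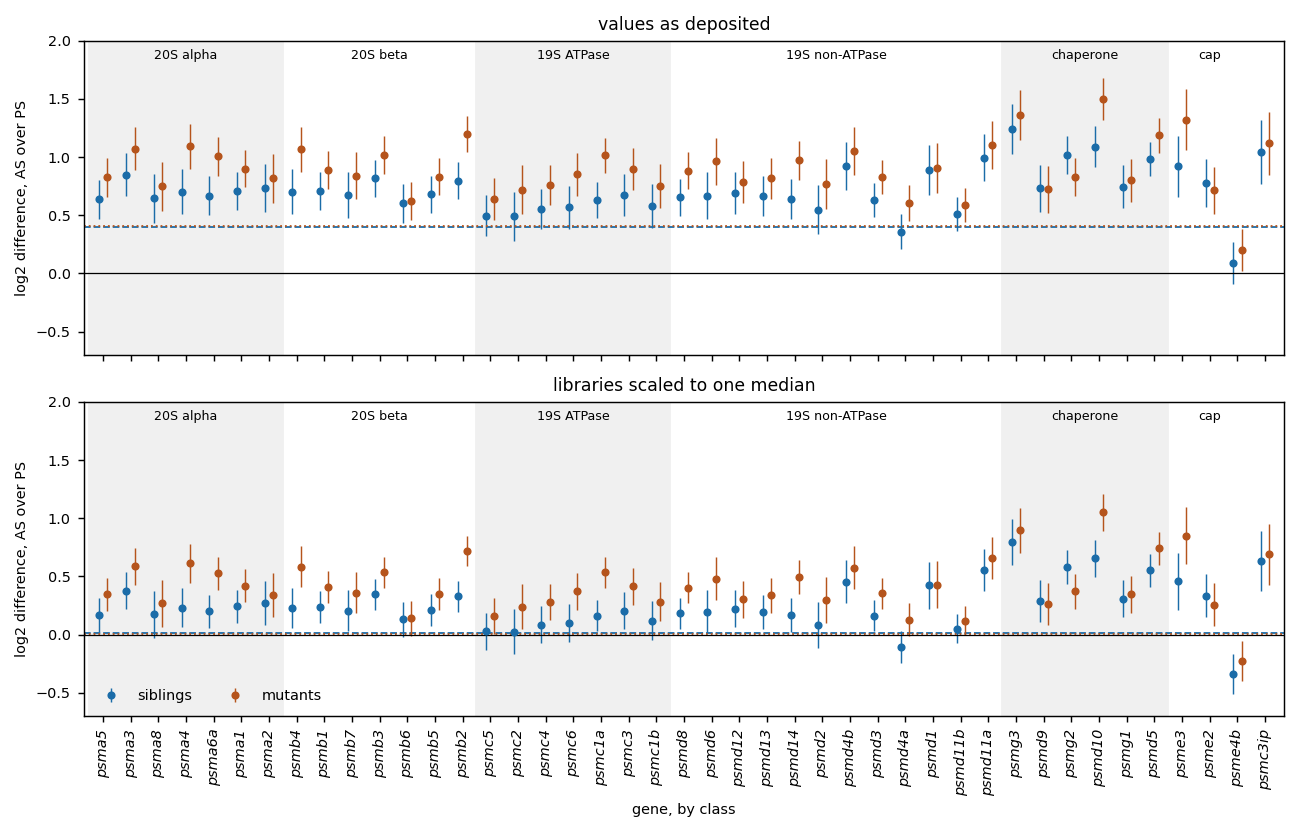
Log2 difference of AS over PS with its standard error for the 43 genes tested, in siblings (blue) and mutants (orange), as deposited above and after scaling to a common median below; dashed and dotted lines give the median of all transcripts in siblings and mutants. As deposited, 41 genes in siblings and 42 in mutants lie above that line, and after scaling the medians of 0.21 and 0.37 lie above a line close to 0.

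Most of these calls did not survive the scaling of the libraries. After scaling, 5 of the 43 genes rose in siblings and 17 in mutants and 0 fell in either, against 19% and 21.5% of all transcripts that rose and 21.1% and 22.6% that fell. The median log2 differences were 0.21 in siblings and 0.37 in mutants, against 0.01 and 0.00 for all transcripts. The 5 genes were psmd10 (0.66, limma adjusted p = 0.0119), psmg3 (0.80, adjusted p = 0.0123), psmg2 (0.58, adjusted p = 0.014), psmd5 (0.55, adjusted p = 0.0159) and psmd11a (0.56, adjusted p = 0.0384). 4 of these 5 encode chaperones of assembly, and psmd11a a lid subunit. 4 of the 5 were also among the 17 of the mutants, where psmg2 did not pass (0.37, adjusted p = 0.0673). In mutants the largest scaled rises were 1.05 for psmd10 (adjusted p = 0.00125), 0.90 for psmg3 (adjusted p = 0.00628), 0.85 for psme3 (adjusted p = 0.0209) and 0.74 for psmd5 (adjusted p = 0.00385). The core genes psma1, psma3, psma4, psma6a, psmb1, psmb2, psmb3 and psmb4, the ATPase gene psmc1a and the non-ATPase genes psmd4b, psmd8, psmd11a and psmd14 made up the rest.

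By class, the scaled median in siblings was 0.23 for alpha genes, 0.23 for beta genes, 0.10 for ATPase genes, 0.19 for non-ATPase genes and 0.57 for chaperone genes. In mutants it was 0.42, 0.41, 0.28, 0.38 and 0.56 in the same order. In siblings 4 of the 6 chaperone genes passed after scaling, against 0 of the 7 alpha, 0 of the 7 beta, 0 of the 7 ATPase and 1 of the 12 non-ATPase genes. In mutants 3 of the 6 chaperone genes passed, against 4 of the 7 alpha, 4 of the 7 beta, 1 of the 7 ATPase and 4 of the 12 non-ATPase genes, so the chaperones did not lead there by count, and no test of the difference between classes was made. Only psme4b and psmd4a had a negative scaled value in siblings, -0.34 and -0.11, and only psme4b in mutants, -0.23; none of these passed the test. All 4 AS libraries stayed above all 4 PS libraries in 21 of the 43 genes after scaling, against 26.5% of all transcripts. With libraries set instead to a common total without the 100 most abundant transcripts, a setting chosen after the data were seen, 34 genes rose in siblings and 42 in mutants, against 32.8% and 34.5% of all transcripts, and the medians were 0.50 and 0.64, against 0.25 and 0.23.

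The sibling count fell when any 1 sibling library was left out, in fits that leave 1 library in that group. It was 39 with all libraries, 12 without SIB_PS replicate 3, 14 without SIB_AS replicate 1, 24 without SIB_AS replicate 3 and 33 without SIB_PS replicate 1, while the median stayed between 0.60 and 0.77. A lone library in these fits was assumed to vary like the other groups. In mutants the count lay between 34 and 42 when any library was left out.

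Markers of tissue makeup moved with the region. Their counts stand against all transcripts, of which 41.6% rose and 9.62% fell in siblings and 44% and 10.9% in mutants. After scaling 19% rose and 21.1% fell in siblings, and 21.5% and 22.6% in mutants. Of the 17 fast muscle markers 16 fell in SIB_AS and 17 in MUT_AS, with median log2 differences of -1.27 and -1.65 against PS, while of the 12 neuronal markers 10 and 9 rose, with medians of 0.99 and 0.97. None of the neuronal markers was at 0 in any library, and together they took 0.10% to 0.108% of all RPKM in SIB_AS, 0.0828% to 0.0937% in MUT_AS, 0.0433% to 0.0448% in SIB_PS and 0.0361% to 0.0451% in MUT_PS. Slow muscle markers fell in 6 of 8 tested genes in both genotypes, while prdm1a of that list rose. Epidermal markers fell in 2 of 9 genes in both genotypes as deposited and in 8 and 7 after scaling, and took 1.27% to 1.69% of all RPKM in SIB_AS, 1.45% to 2.36% in MUT_AS, 2.15% to 2.39% in SIB_PS and 2.12% to 3.33% in MUT_PS. All 7 tested brain and eye markers rose in AS in both genotypes, with medians of 1.17 and 1.06, and 5 and 6 of them after scaling. pax6a of that list stood at 5.70 to 7.84 RPKM in the PS libraries too. The pieces are said to be cut without the head, and whether head tissue was carried over was not tested. The whole list of 11 took 0.00756% to 0.00976% of all RPKM in SIB_AS, 0.00814% to 0.00856% in MUT_AS, 0.00251% to 0.00325% in SIB_PS and 0.00275% to 0.00296% in MUT_PS, and 5 of its genes (crygm2d1, otx1a, rx1, rx2 and six3b) were at 0 in 1 or more libraries. Of 8 myeloid markers 5 rose in siblings, and 6 rose and 1, mpx, fell in mutants. After scaling none of them was called in siblings (0 at an unadjusted p under 0.05 in limma), and 3 rose and 1 fell in mutants. Myeloid markers took 0.0281% to 0.0316% of all RPKM in SIB_AS, 0.0322% to 0.0359% in MUT_AS, 0.0175% to 0.0186% in SIB_PS and 0.00889% to 0.00899% in MUT_PS, and none was at 0. The part of these markers in the difference of the proteasome genes was not tested.

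**Figure D3:**
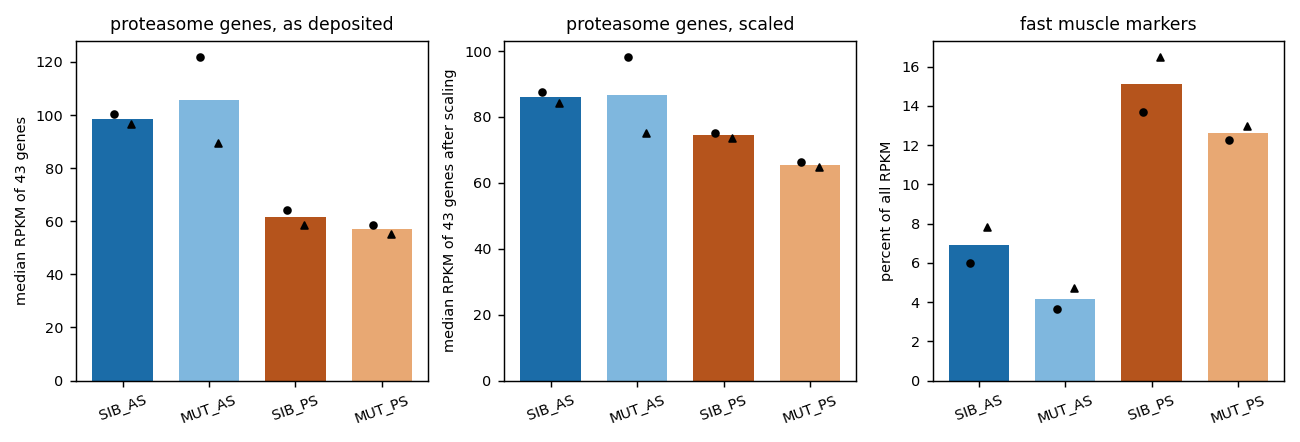
Median RPKM of the 43 tested proteasome genes as deposited (left) and after scaling (middle), and the share of all RPKM held by fast muscle markers (right); bars are group means, circles replicate 1 and triangles replicate 3. The proteasome medians are higher in AS than in PS, less so after scaling, and the muscle share is lower in AS.

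Over these 43 genes the median level was 100.4 and 96.7 RPKM in SIB_AS, 122 and 89.6 in MUT_AS, 64.3 and 58.6 in SIB_PS and 58.6 and 55.2 in MUT_PS. After scaling it was 87.7 and 84.3 in SIB_AS, 98.2 and 75.1 in MUT_AS, 75.1 and 73.8 in SIB_PS and 66.2 and 64.7 in MUT_PS. The AS and PS libraries of siblings did not overlap on either scale, whereas MUT_AS replicate 3 came down to the level of the sibling PS libraries after scaling.

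3 pairs of paralogs were in the list, and in 2 of them the balance between the copies differed with region. The ratio of psmd4a to psmd4b was 0.707 and 0.807 in SIB_AS, 0.732 and 1.01 in MUT_AS, 1.02 and 1.23 in SIB_PS and 1.13 and 1.22 in MUT_PS. The highest AS library was just below the lowest PS library. The ratio of psmd11a to psmd11b was 0.537 and 0.469 in SIB_AS, 0.627 and 0.457 in MUT_AS, 0.363 and 0.325 in SIB_PS and 0.388 and 0.327 in MUT_PS, again without overlap between regions, and here the first copy was the more anterior. The ratio of psmc1a to psmc1b lay between 1.82 and 2.59, and its regions overlapped. A ratio within a library does not depend on its scaling. Reads that both copies of a pair share were assigned to a single transcript by the authors' aligner, so the split between copies is uncertain to that extent, and these ratios were not tested.

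**Figure D4:**
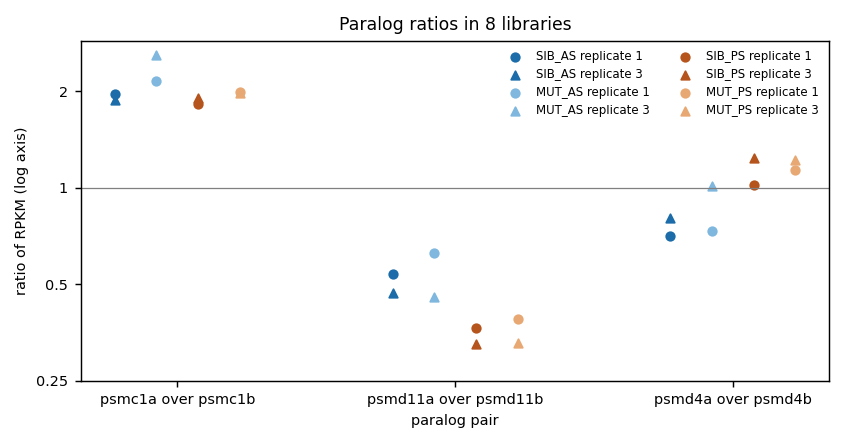
Ratio of RPKM between the copies of 3 paralog pairs in each library, on a log axis; circles are replicate 1, triangles replicate 3, blue tones AS and orange tones PS. The AS and PS libraries are apart for psmd11a over psmd11b and mixed for psmc1a over psmc1b. For psmd4a over psmd4b they lie in the opposite order and nearly touch, at 1.01 in MUT_AS replicate 3 and 1.02 in SIB_PS replicate 1.

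The comparisons of mutants with siblings asked which of these genes depend on foxc1a. No proteasome gene passed the test in either region. In AS 0 of 43 genes were called, against 0.0459% of all transcripts, and 0 had an unadjusted p under 0.05 in limma. The median log2 difference was 0.09, against 0.08 for all transcripts, with 34 genes higher and 9 lower, and after scaling it was 0.00 for both, with 22 genes higher and 21 lower. The highest values were those of psmd10 (0.31, SE 0.18, adjusted p = 0.513 in limma), psmb4 (0.31, SE 0.19, adjusted p = 0.544) and psmb2 (0.30, SE 0.16, adjusted p = 0.488). The lowest were those of psmd11b (-0.19, SE 0.15, adjusted p = 0.643), psmd1 (-0.16, SE 0.22, adjusted p = 0.796) and psmd11a (-0.09, SE 0.21, adjusted p = 0.888). The groups did not overlap in 7 genes that were higher and 1 that was lower in MUT_AS, against 27% and 11.7% of all transcripts.

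The sign of the AS median turned on single libraries, being -0.15 without MUT_AS replicate 1 and 0.31 without MUT_AS replicate 3. The MUT_AS libraries differed from each other along the whole set. 41 of the 43 genes were higher in replicate 1 than in the shallow replicate 3, with a median ratio of 1.35, and 39 of the 43 had their highest value of all 8 libraries in MUT_AS replicate 1. The same median ratio was 1.02 in SIB_AS, 1.13 in SIB_PS and 1.05 in MUT_PS. Besides depth, MUT_AS replicates 1 and 3 differed in tissue markers. Erythroid markers took 0.862% and 0.305% of all RPKM and heart markers 0.0089% and 0%. Epidermal (1.45% and 2.36%) and fast muscle markers took more in replicate 3. Replicate 3 also had the smaller erythroid share in the other groups. It was 0.353% and 0.125% in SIB_AS, 0.258% and 0.205% in SIB_PS and 1.4% and 0.448% in MUT_PS. Epidermal and fast muscle markers took more in replicate 3 there too. Heart markers took less in replicate 3 in SIB_AS and MUT_PS, but not in SIB_PS. The median ratios of the proteasome genes in these groups were the 1.02 to 1.13 given above. The part of depth and tissue in the MUT_AS difference was not tested.

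In PS 0 of 43 genes were called, against 0% of all transcripts, and again 0 had an unadjusted p under 0.05 in limma. The values leaned toward lower levels in mutants. The median log2 difference was -0.12, against 0.06 for all transcripts. Of the 43 genes 35 were lower, against 3938 of 10889 transcripts. Genes measured in the same libraries are not separate support. The SD of library medians between replicates, combined over both groups, was 0.11. That SD is for single libraries and not for means of 2. Both MUT_PS libraries were below both SIB_PS libraries in 19 genes and above them in 1, against 8.93% and 23.8% of all transcripts. All 7 ATPase and all 12 non-ATPase genes had values below 0, with medians of -0.14 and -0.17, whereas the chaperones had a median of 0.08. Of the 7 alpha and the 7 constitutive beta genes 6 each were below 0, with medians of -0.08 and -0.10. After scaling all 7 of each were below 0, with medians of -0.16 and -0.17. The lowest values were those of psme3 (-0.34, SE 0.26, adjusted p = 1 in limma), psmd11b (-0.27, SE 0.15) and psmc6 (-0.24, SE 0.18). The highest were those of psmg2 (0.31, SE 0.16), psmg1 (0.20, SE 0.18) and psme2 (0.14, SE 0.20), and psmg2 was the gene whose MUT_PS libraries were both above SIB_PS. After scaling the PS median was -0.19, against -0.01 for all transcripts, and 38 of 43 genes were lower, against 5616 of 10889 transcripts. The libraries then did not overlap in 31 lower genes and 1 higher gene, against 18.8% and 16% of all transcripts. The smallest adjusted p of the 43 was 1 on both scales in limma, with 1 gene, psmd11b, at an unadjusted p under 0.05 after scaling. The median lay between -0.17 and -0.05 when any library was left out. Erythroid markers took 1.4% and 0.448% of all RPKM in MUT_PS against 0.258% and 0.205% in SIB_PS, and fast muscle markers less than in SIB_PS in both libraries. Myeloid markers took 0.00899% and 0.00889% in MUT_PS against 0.0175% and 0.0186% in SIB_PS, without overlap. Within that list lyz (mean 20.15 against 53.4 RPKM), npsn and npsnl were lower in MUT_PS. lcp1, coro1a, mpeg1 and spi1b (1.69 against 1.24 RPKM) had higher means there, and the libraries overlapped for mpx. The part of the erythroid, fast muscle and myeloid markers in the lean was not tested.

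**Figure D5:**
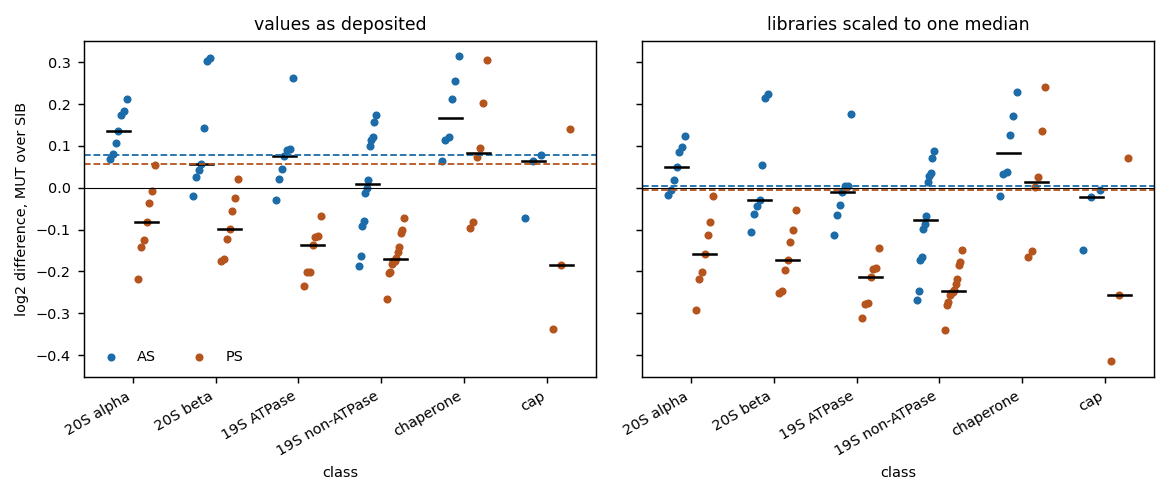
Log2 difference of MUT over SIB for the tested subunit, chaperone and cap genes by class, in AS (blue) and PS (orange), as deposited (left) and scaled (right); black bars are class medians and dashed lines the medians of all transcripts. In PS the points of both 19S classes lie below 0 on both scales, and no gene passed the test.

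The difference between the regions was larger in mutants than in siblings in 40 of the 43 genes, and in 5773 of 10889 transcripts. The median interaction was 0.19 on the log2 scale, against 0.02 for all transcripts, and 0.18 against 0.01 after scaling. The SD of library medians between replicates, combined over the 4 groups, was 0.33, above the median interaction. That SD is for single libraries and not for means of 2. No gene passed the test of that interaction, against 0% of all transcripts, and 0 had an unadjusted p under 0.05 in limma. The largest values were those of psmd10 (0.41, SE 0.25, adjusted p = 0.999 in limma), psme3 (0.40, SE 0.37) and psmb2 (0.40, SE 0.22). The lowest were those of psmg2 (-0.19, SE 0.23), psme2 (-0.06, SE 0.29) and psmd9 (-0.01, SE 0.29). Leaving out MUT_AS replicate 1 gave a median of -0.01, and leaving out MUT_AS replicate 3 gave 0.39.

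Genes that work with the proteasome or in it, under names that the rule does not take, were listed apart. Of 28 such partners and regulators in the table, all but 1 (27) were tested, and 18 rose in AS over PS in siblings and 18 in mutants, with 0 that fell and medians of 0.64 and 0.77, against 41.6% and 44% of all transcripts that rose. The ubiquitin-activating enzyme gene uba1 rose by 1.09 in siblings and 1.25 in mutants, and the polyubiquitin gene ubc by 0.95 and 1.01. vcp, the segregase that hands substrates to the proteasome, rose by 0.96 and 1.02, and its cofactor gene nploc4 by 0.90 and 1.28. The deubiquitinase genes usp14 (0.76 and 1.06) and uchl5 (0.84 and 1.06), the ubiquitin receptor gene adrm1 (0.72 and 0.99) and the maturation factor gene pomp (0.80 and 0.89) also rose in both. nfe2l3, related to the transcription factor that raises proteasome genes in mammals, rose by 1.11 and 1.1, and ddi2 and ngly1, which process that factor, by 0.51 and 0.60 in siblings and 0.51 and 0.54 in mutants. The other genes that rose in both were psmf1, rad23aa, rad23b, txnl1, ube3c and ubqln4, with values from 0.51 to 0.90, while zfand5b passed only the test in siblings (0.49, against 0.12 in mutants) and shfm1 only that in mutants (0.90, against 0.66 in siblings), and 0 of the 27 passed the test of the interaction. After scaling 4 of the 27 rose in siblings and 7 in mutants, near the background of 19% and 21.5% of all transcripts. The ubiquitin fusion gene rps27a (0.08 and 0.16) did not pass in either genotype. 0 of the 27 were called between genotypes in either region.

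Other large complexes were measured for comparison, and their counts stand against 41.6% of all transcripts that rose in siblings and 44% in mutants. Of 7 genes of the COP9 signalosome, which is built like the 19S lid, 4 rose in siblings and 6 in mutants, with medians of 0.52 and 0.77, from the lowest value of 0.28 for cops3 to 0.85 for cops4. Of 13 genes of translation initiation factor 3, 9 and 12 rose, with medians of 0.61 and 0.75, and after scaling eif3jb fell in both genotypes (-0.89 and -0.68). Of 8 genes of the chaperonin CCT, which folds actin and tubulin, 2 (cct2 and cct3) and 8 rose, with medians of 0.35 and 0.56, so that the sibling count lay below the share of all transcripts. After scaling the medians in siblings were 0.06 for the signalosome, 0.14 for the initiation factor and -0.12 for the chaperonin, beside 0.21 for the proteasome genes. In mutants they were 0.31, 0.27 and 0.08 in the same order, beside 0.37, and no test of the difference between lists was made. A list of muscle genes, ubiquitin ligases and chaperones among them, went the other way. Of 10 tested genes of that list 9 fell in AS in siblings and 9 in mutants, with medians of -1.32 and -1.26. Of all transcripts 9.62% and 10.9% fell. They included klhl31 (-1.5 and -1.71), smyd1b (-1.54 and -1.45), unc45b (-1.5 and -1.16), klhl41b (-1.37 and -1.27) and trim55a (-1.38 and -1.25), genes used in sarcomere assembly and upkeep. klhl40a, smyd1a, asb2b and trim55b also fell, and fbxo25 did not pass (0.03 and -0.37).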

How the data were processed

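Polyadenylated RNA of 8 zebrafish libraries was sequenced. The design text names RUM as the aligner, of unstated version, and Zv9 (danRer7) as the genome, with every read given to 1 transcript. Per the file headers, the authors deposited log2(RPKM + 1) values for 14809 rows, of which 228 were fill rows without comparison values and 14581 were used. The deposited table also holds ratio columns of the authors, sibling over mutant for libraries of the same number. Its header calls them fold changes, but they equal the quotient of the deposited log2 values (52445 of 52445 values compared, to a relative tolerance of 0.01), so they served only to find the fill rows, where they are empty. Counts were not used here, so depth is unknown apart from the estimate given for the shallowest library.

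RPKM were recovered by undoing the log with its pseudocount of 1. The 10889 transcripts that averaged 1 RPKM or more were fitted in limma 3.58.1 (statmod 1.5.0, R 4.3.3; trend and robust options) with 1 mean for each of 4 groups over all 8 libraries, and 5 contrasts were taken. Adjusted p-values are Benjamini-Hochberg values over all transcripts, called under 0.05, and the code was tested on simulated data. Alternatives were scaling to a common median, a pseudocount of 0.1, no filter, a weight for each group, a replicate block, the compared groups only, all rows of a symbol, each library left out and, added after seeing the data, 2 more (psmc3ip left out, and totals without the 100 most abundant transcripts). Symbols were matched by accession to RefSeq names of another assembly, for 49 of 49 genes, of which 5 carry another name there. The genes and lists were chosen with earlier results of these data known. Values in every library are given for genes called in any contrast, for the 3 highest and 3 lowest of each contrast, for the extremes of each class, and for all inducible beta and cap genes. Genes of other lists are given by their log2 differences. The values of 1 listed partner gene are not reported here. No promoter or protein sequences were used here, so the planned motif search was not made.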

Additional observations from a re-analysis of the deposited data

How the results depend on the processing

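Of 3687 recomputed values of single genes and lists none reversed a call, and 3461 were labelled as the same. A gene that was not called could change sign and keep that label. In MUT_AS over SIB_AS all 43 genes kept it under scaling, though 34 were higher as deposited and 22 after scaling. A further 16 gained significance, and 17, none of them of a single gene, were labelled as moved. No proteasome gene was called between genotypes or for the interaction, so those comparisons had no call to lose. The other 193 values lost significance, 59 of them under scaling to a common median. That scaling took the siblings' AS over PS count from 39 to 5 and its median from 0.68 to 0.21, and the mutants' count from 42 to 17 and its median from 0.85 to 0.37. With the shallowest library, MUT_AS replicate 3, also left out, the siblings' count was 11 and its median 0.21. A common total without the 100 most abundant transcripts gave a siblings' median of 0.50. Leaving out any single library gave siblings' counts from 12 to 42. With fast muscle and erythroid markers and transcripts under the filter taken out of the total, the shares were 0.502% in MUT_PS, 0.880% in SIB_AS and 0.573% in SIB_PS. Scaling removes the rise in the median of all transcripts by construction; the cause of the other moves was not tested. Same-numbered libraries are not stated to be pairs, and the correlations of their deviations between groups ran from -0.09 to 0.52; with the replicate number as a block the counts were 42 in siblings, 42 in mutants and 0 for both genotype comparisons and the interaction. Depth limits the genes under 1 RPKM, which were not tested, and every MUT_AS value, since one of its libraries is shallow.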

Other observations

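5 further transcripts carry proteasome names in RefSeq but another symbol in the table, so the name rule passed them over. si:rp71-45k5.4 (psma2b in RefSeq) stood at 137 ± 15 RPKM in SIB_AS, 135 ± 51 in MUT_AS, 98.9 ± 10 in SIB_PS and 82.7 ± 9.9 in MUT_PS (SD, n = 2 in every group). Its level was like that of the constitutive alpha genes, and its AS over PS difference passed the test in mutants (0.66 on the log2 scale, limma adjusted p = 0.0396) but not in siblings (0.47, adjusted p = 0.127). zgc:92716 (psma6b in RefSeq) stood at 56.7 ± 0.56 RPKM in SIB_AS, 59.0 ± 12.2 in MUT_AS, 48.8 ± 3.6 in SIB_PS and 42.0 ± 3.7 in MUT_PS, and its AS over PS difference passed in mutants (0.47, limma adjusted p = 0.0441) but not in siblings (0.21, adjusted p = 0.333), whereas the row that the table itself calls psma6b stayed under 1 RPKM.

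zgc:92791, which RefSeq names psmb10, stood at 6.66 ± 0.29 RPKM in SIB_AS, 7.63 ± 4.5 in MUT_AS, 4.32 ± 0.68 in SIB_PS and 6.32 ± 2.8 in MUT_PS, above all 4 beta genes that were near silent under the names in the table. Its MUT_AS libraries were at 4.46 and 10.8 RPKM and its MUT_PS libraries at 4.34 and 8.30 RPKM, so replicate 3 was the higher in both mutant groups. si:ch211-14a17.13, psmb11a in RefSeq, was listed at 0 in all 8 libraries. fam192a, which RefSeq names psme3ip1 after its interaction with the psme3 cap, stood at 25.3 ± 3.4 RPKM in SIB_AS, 30.7 ± 4.1 in MUT_AS, 22.1 ± 0.85 in SIB_PS and 21.5 ± 3.7 in MUT_PS, and its difference passed in mutants (0.50, limma adjusted p = 0.0411) but not in siblings (0.18, adjusted p = 0.423). For none of the 4 tested transcripts did the interaction of genotype and region pass (adjusted p = 0.999 in each).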
